A study of Rattus norvegicus with 18 samples.

Results

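The carriers that move amino acids, their transmitter derivatives and monoamines across the plasma membrane or into synaptic vesicles were followed in primary rat cortical neurons. Probes were taken by gene symbol, as members of the solute carrier families Slc1, Slc3, Slc6, Slc7, Slc17, Slc18, Slc32, Slc36, Slc38 and Slc43 other than Slc1a2 and Slc1a3, which gave 58 of 22523 probes for 57 symbols. By the detection p-value of the scanner software, with a limit of 0.02, 34 of the 58 were detected on at least 1 of 18 arrays and kept, and 20 on all of them. The neurons came from embryonic rats and received lentivirus for 6 hours on day 1 of culture, and RNA was harvested on days 5, 9 and 12. In the control cultures the pLKO.1 lentivirus carried a scramble shRNA, and in the others it carried an shRNA against CHD5, a chromatin remodeling ATPase of the brain. Each shRNA and day had 3 replicates, a, b and c, on Illumina rat arrays. According to the methods only 1 CHD5 lentivirus was used for the arrays, so an effect of that shRNA on other transcripts and the loss of CHD5 cannot be told apart. No probe of the array is annotated to Chd5, and the depletion could not be checked in these files. From other experiments on such neurons, the study reports lower CHD5 protein by immunoblot and lower CHD5 mRNA after the knockdown. Nothing in the labels says that the replicates were separate cultures, and p-values measure the spread between these samples, which may be technical.

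Fast transmission depends on carriers at each end of the synapse. Vesicular transporters load glutamate, GABA, acetylcholine or monoamines into vesicles before release, and plasma membrane carriers of families 1 and 6 remove the transmitter afterwards, in neurons and in the astrocytes around them. Families 38, 7 and 3 supply the precursors: glutamine leaves astrocytes through system N carriers such as Slc38a3 and enters neurons through system A carriers such as Slc38a1 and Slc38a2, while light chains of family 7 pair with the heavy chains Slc3a1 and Slc3a2 to exchange larger amino acids.

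The promoter sequences of the transporters that were called against control are shown first, because they are the DNA next to the genes on which the results turn. Of the 7 called genes, Slc17a6, Slc6a6, Slc6a9 and Slc3a1 had an entry in the RefSeq promoter table. The bases run 5′ to 3′ on the strand of the gene and end at the base before the start of transcription. Capitals mark matches to TTGGC, the 5-base core bound by NFI factors. TGATGNAA, the core of the amino acid response element, has no match in the 4 sequences. Both were searched on both strands.
Slc17a6, GRCr8 chr1:110348197-110348446, plus strand: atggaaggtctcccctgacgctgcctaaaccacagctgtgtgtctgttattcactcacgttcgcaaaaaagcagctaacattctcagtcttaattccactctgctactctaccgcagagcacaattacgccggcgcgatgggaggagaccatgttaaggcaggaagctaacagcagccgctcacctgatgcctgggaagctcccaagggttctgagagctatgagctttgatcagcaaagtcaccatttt
Slc6a6, GRCr8 chr4:125752252-125752501, plus strand: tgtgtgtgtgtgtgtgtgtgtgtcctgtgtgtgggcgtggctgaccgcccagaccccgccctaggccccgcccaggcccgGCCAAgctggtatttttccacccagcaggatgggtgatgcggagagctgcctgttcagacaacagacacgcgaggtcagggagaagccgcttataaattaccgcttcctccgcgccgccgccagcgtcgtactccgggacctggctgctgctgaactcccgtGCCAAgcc
Slc6a9, GRCr8 chr5:136659826-136660075, plus strand: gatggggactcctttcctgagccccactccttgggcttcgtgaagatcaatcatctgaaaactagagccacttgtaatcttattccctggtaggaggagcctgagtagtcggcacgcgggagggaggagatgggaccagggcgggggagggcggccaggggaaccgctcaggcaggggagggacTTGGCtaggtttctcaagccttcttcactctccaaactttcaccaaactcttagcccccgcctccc
Slc3a1, GRCr8 chr6:15394750-15394999, minus strand: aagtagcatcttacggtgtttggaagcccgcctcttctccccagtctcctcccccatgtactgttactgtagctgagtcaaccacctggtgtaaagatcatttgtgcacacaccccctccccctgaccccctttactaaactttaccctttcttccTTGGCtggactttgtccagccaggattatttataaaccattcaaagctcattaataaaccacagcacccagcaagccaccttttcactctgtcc
Of the 34 kept transporters 26 had a promoter of this kind. TTGGC was found in 9 of the 26, as against 40.3% of 27457 promoters of the same 250 bases. TGATGNAA was found in 3 of the 26, those of Slc38a1, Slc7a1 and Slc1a4, as against 3.27% of all. The cAMP response element TGACGTCA was found in 1, that of Slc38a6, as against 1.70% of all. No capitals occur in Slc17a6. A match describes the letters only.

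The mean signal of an array lay between 400.2 and 789.3 except in control replicate b of day 9, where it was 134.8. On that array 23 transporter probes were detected, as against 24 to 31 on each other array. Signals carried no background subtraction, which makes fold changes of dim probes smaller than the change in RNA. For the tests the log2 signals of each array were brought to 1 mean and 1 spread, so that 0 is the mean of the kept probes of the array. These values are called normalized log2 signals below, and they were compared within a probe, never between probes. The second measurement of the 6 arrays of replicate a moved the 34 probes by a median of 0.0751 on this scale, and the median SD between replicates was 0.159. A probe was called when its limma adjusted p, corrected over 11079 probes, was under 0.05.

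Transporters for monoamines were not detected in these cultures. The plasma membrane carriers of noradrenaline (Slc6a2), dopamine (Slc6a3) and serotonin (Slc6a4), the vesicular carriers Slc18a1 and Slc18a2 and the third vesicular glutamate transporter, Slc17a8, passed the detection limit on none of the 18 arrays. Nor did the betaine carrier Slc6a12, the GABA and taurine carrier Slc6a13, the glycine carrier Slc6a5 or the light chain Slc7a9. In all 24 probes of the 58 were never detected. Slc18a3, which loads acetylcholine, was detected on 2 day 5 and 1 day 9 control arrays and on no array with CHD5 shRNA. It was kept through those control arrays alone, and on day 12 neither group had it detected. Against control it was not called on any day (limma adjusted p = 0.999, 0.363 and 0.986). Other carriers were detected on all 18 arrays, among them Slc17a6, Slc32a1, Slc1a1, Slc6a6, Slc6a9, Slc38a1, Slc38a2, Slc3a2 and Slc7a5.

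**Figure D1:**
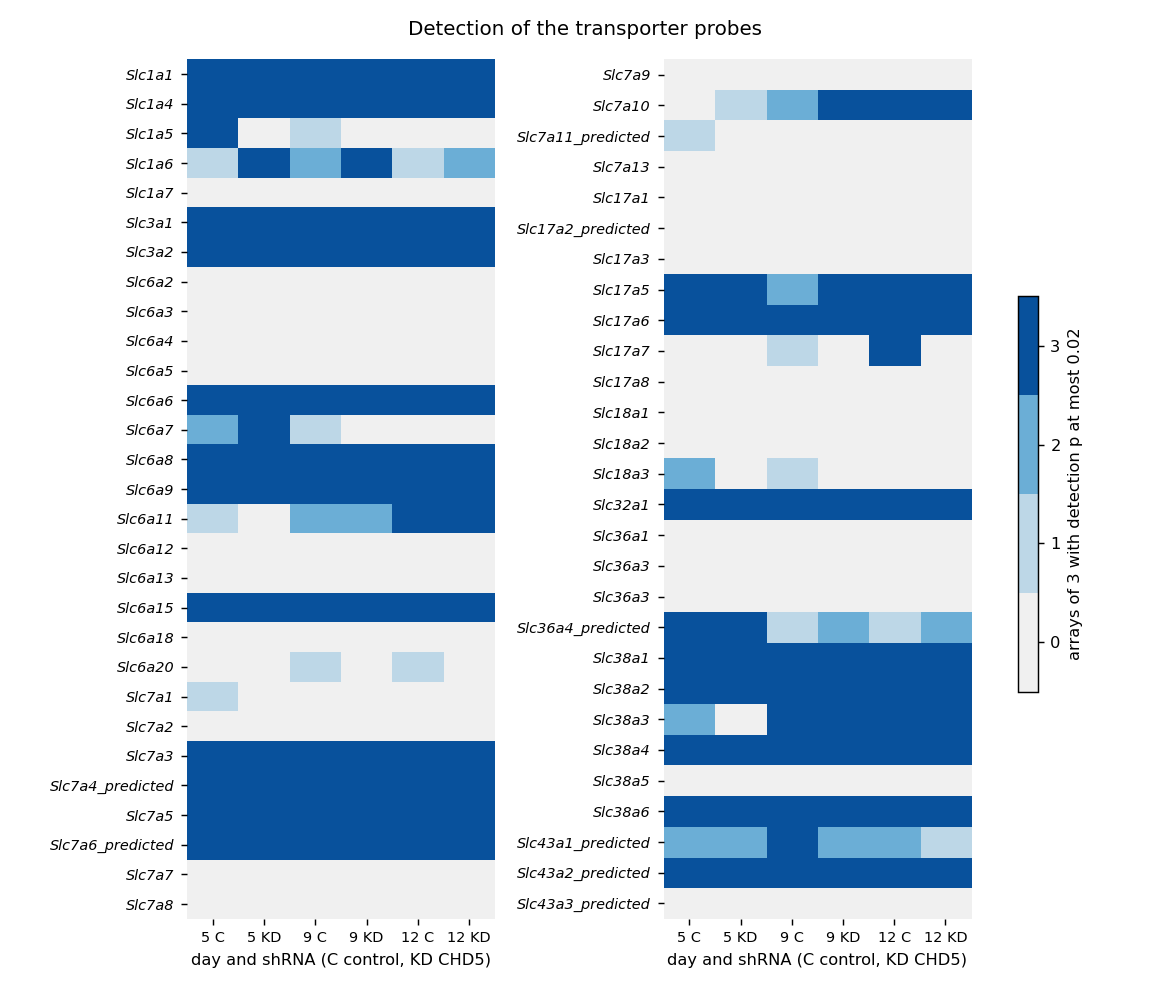
Number of arrays, of 3 in each group, on which each transporter probe passed the detection limit of 0.02. Columns are the day and the shRNA (C control, KD CHD5) and rows are probes in family order. Monoamine carriers stay blank throughout, and Slc17a7 is complete only in the day 12 control column.

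In the control cultures the transporters split with age. Between day 5 and day 12, 17 of the 34 kept probes were called, 9 higher and 8 lower, beside 23.6% of all kept probes (11.1% higher and 12.5% lower). At that share about 8 of the 34 would be called. Among the higher were the GABA carriers Slc6a11 and Slc32a1, the glutamate carriers Slc1a1 and Slc17a7, and Slc38a3, Slc7a10, Slc3a1 and Slc6a8. Lower were the glutamate carrier Slc17a6, the taurine carrier Slc6a6 and the amino acid carriers Slc7a3, Slc7a5, Slc38a1, Slc38a2, Slc1a5 and Slc36a4_predicted. The median log2 difference was 0.14 over the 34 probes and -0.02 over all kept probes.

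Slc7a10, a light chain of small neutral amino acids including D-serine, was detected on 0 of 3 control arrays on day 5 and 3 of 3 on day 12, and it was at least 2.29-fold higher on day 12 (limma adjusted p = 1.41e-08). Its normalized log2 signals were -1.88, -1.94 and -1.74 on the day 5 control arrays, -1.04, -1.12 and -0.95 on day 9, and -0.48, -0.61 and -0.50 on day 12. Each day lay above the one before without overlap. The bound sets the day 12 mean against the higher of the dimmest detected signal and the probe's own signal on each day 5 array.

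Slc38a3, the system N glutamine carrier of astrocytes, was near the detection limit on day 5, with -1.80, -1.72 and -1.76 on the control arrays, 2 of them detected. It reached -0.90, -0.85 and -0.94 on day 9, and -0.37, -0.62 and -0.55 on day 12. The rise to day 12 was 1.24 ± 0.09 (log2 difference ± SE, n = 3 against 3; limma adjusted p = 1.08e-08), and the 3 days did not overlap. Slc6a11, a GABA carrier known from astrocytes, rose by 0.88 ± 0.12 over the same days (limma adjusted p = 3.47e-05), with 1 of 3 arrays detected on day 5 and 3 of 3 on day 12. The heavy chain Slc3a1 rose by 0.79 ± 0.14, the neuronal glutamate carrier Slc1a1 by 0.68 ± 0.10, the creatine carrier Slc6a8 by 0.53 ± 0.15 and the vesicular GABA carrier Slc32a1 by 0.48 ± 0.10 (each limma adjusted p under the limit).

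Among the vesicular glutamate transporters the 2 detected members went opposite ways. Slc17a7 was detected on no control array on day 5, on 1 of 3 on day 9 and on all 3 on day 12, and was at least 1.37-fold higher on day 12 than on day 5 (limma adjusted p = 0.00286). Slc17a7 was kept through those control arrays alone, so that this rise is not independent of the detection filter. Slc17a6 had values of 2.19, 2.28 and 2.25 on day 5 and 1.52, 1.60 and 1.54 on day 12. It fell by 0.68 ± 0.16 on the log2 scale (limma adjusted p = 0.00329), and no day 12 array reached the day 5 range.

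The largest fall was that of Slc7a3, a carrier of arginine and lysine, from 2.06, 2.07 and 2.18 on day 5 to 1.02, 1.04 and 1.08 on day 12, a log2 difference of -1.06 ± 0.13 (limma adjusted p = 5.46e-06). Slc6a6, the taurine carrier, fell by 0.87 ± 0.15, and the system A carriers Slc38a1 and Slc38a2 fell by 0.67 ± 0.13 and 0.64 ± 0.15. The light chain Slc7a5, which takes up large neutral amino acids, fell by 0.36 ± 0.09 (limma adjusted p = 0.0092). Slc36a4_predicted, a proton-coupled carrier, fell by 0.39 ± 0.11. Slc1a5, an exchanger of neutral amino acids, was called lower (limma adjusted p = 0.0216), but was detected on no day 12 control array, so that no size is given. It was kept through day 5 and day 9 control arrays alone, so that the call is not independent of the detection filter. That call was lost without the day 5 control array of replicate c or any 1 of the day 12 control arrays. With median centring, which leaves the spread of each array as it was, the calls of Slc17a6, Slc17a7, Slc1a1, Slc1a5 and Slc7a5 were lost too. Slc6a8 and Slc36a4_predicted were not followed singly in the alternatives. The count given at the end falls further with median centring than these named losses account for. With neqc, which removes background, the rises of Slc38a3 and Slc6a11 were 2.05 and 1.51, and Slc7a5 was not called, with -0.34 (limma adjusted p = 0.0602).

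The enzymes and factors around these carriers are given from lists of the pathway. Of 9 kept probes of serine and glycine synthesis and the amino acid response, 6 were called between day 5 and day 12 in control, 2 higher and 4 lower. Of all kept probes 23.6% were called in this comparison (11.1% higher and 12.5% lower). Asns, the asparagine synthetase, had a log2 difference of -1.10 ± 0.17, Atf4, the transcription factor of the response, -0.70 ± 0.13, Chac1_predicted -0.64 ± 0.10 and the mitochondrial serine enzyme Shmt2 -0.47 ± 0.10. Phgdh, which starts serine synthesis, had 1.39 ± 0.14 and the glycine cleavage enzyme Gldc_predicted 0.59 ± 0.09. Of 8 kept probes of glutamate and GABA metabolism 3 were called higher on day 12 and none lower, beside the same shares of all kept probes. Glud1, the glutamate dehydrogenase, had the largest difference, 1.77 ± 0.12. The GABA synthesizing enzymes Gad1 and Gad2 had 0.32 ± 0.15 and -0.30 ± 0.17 and were not called. All 10 kept astrocyte markers rose over the same days, with a median log2 difference of 2.05. In RNA of whole cultures fewer cells of a type and less RNA per cell cannot be told apart, and the part of the growing astrocyte signal in the changes of the carriers was not tested.

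The steps were also tested 1 by 1. In control 11 transporter probes were called from day 5 to day 9, 8 higher and 3 lower, beside 22% of all kept probes (9.18% higher and 12.8% lower), and 6 from day 9 to day 12, 3 in each direction, beside 4.16% of all (2.95% higher and 1.21% lower). Slc7a3 had a log2 difference of -0.74 ± 0.13 in the later step, and Slc38a2 had -0.74 ± 0.15. Neither was called in the earlier one. Without the dim day 9 control array the later differences were -0.93 for Slc7a3 and -0.51 for Slc38a2. Both later calls were lost with median centring and in a fit to the compared groups alone. Slc38a3 had 0.86 ± 0.09 and then 0.38 ± 0.09, called in both steps. Its later call was lost in 7 of 28 alternatives. These included median centring, array weights, the fit to the compared groups and detection on all 3 arrays of a group. Omission of day 9 control replicate c, or of day 12 control replicate a or c, made up the rest. Slc7a10 was at least 1.61-fold higher on day 9 than on day 5 and then rose by 0.50 ± 0.10. The later call of Slc7a10 was lost with median centring, array weights and the fit to the compared groups. Both steps use the same day 9 arrays, the dim one among them.

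With CHD5 shRNA the same days gave 14 called probes between day 5 and day 12, 9 higher and 5 lower, beside 17% of all kept probes (8.46% higher and 8.56% lower). Slc17a7 is among the 9 although it was detected on no CHD5 shRNA array of either day, so that no size is given, and its call was lost in 8 of 28 alternatives. Slc7a10 rose by 0.98 ± 0.10 in these cultures and Slc3a1 by 0.81 ± 0.14. Slc38a3 and Slc6a11, detected on no day 5 array with CHD5 shRNA and on all 3 of day 12, were at least 1.41-fold and 1.28-fold higher (limma adjusted p = 6.05e-05 and 0.000909). Slc7a3 fell by 0.62 ± 0.13, Slc38a2 by 0.69 ± 0.15 and Slc6a6 by 0.50 ± 0.15. The Slc6a6 call was lost in 5 of 28 alternatives. These were no detection filter and omission of CHD5 shRNA replicate a or b of day 5 or b or c of day 12. The Slc7a3 call was lost with median centring. Slc17a6 and Slc38a1 had differences of -0.39 ± 0.16 and -0.35 ± 0.13 and were not called. Without the dim day 9 control array both were called, at -0.40 and -0.35 (limma adjusted p = 0.000742 and 0.0082). With all arrays Slc7a4_predicted, an orphan of the cationic carriers, rose by 0.37 ± 0.10 (limma adjusted p = 0.0154). Slc7a6_predicted, a light chain, fell by 0.51 ± 0.17 (limma adjusted p = 0.0485). From day 5 to day 9 the CHD5 shRNA cultures had 6 called probes, all higher, beside 9.33% of all kept probes (4.61% higher), and from day 9 to day 12 they had 1, Slc7a10, beside 1.37%. Whether the change over days differed between the shRNAs was tested directly, as the change of the difference, and is given at the end.

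**Figure D2:**
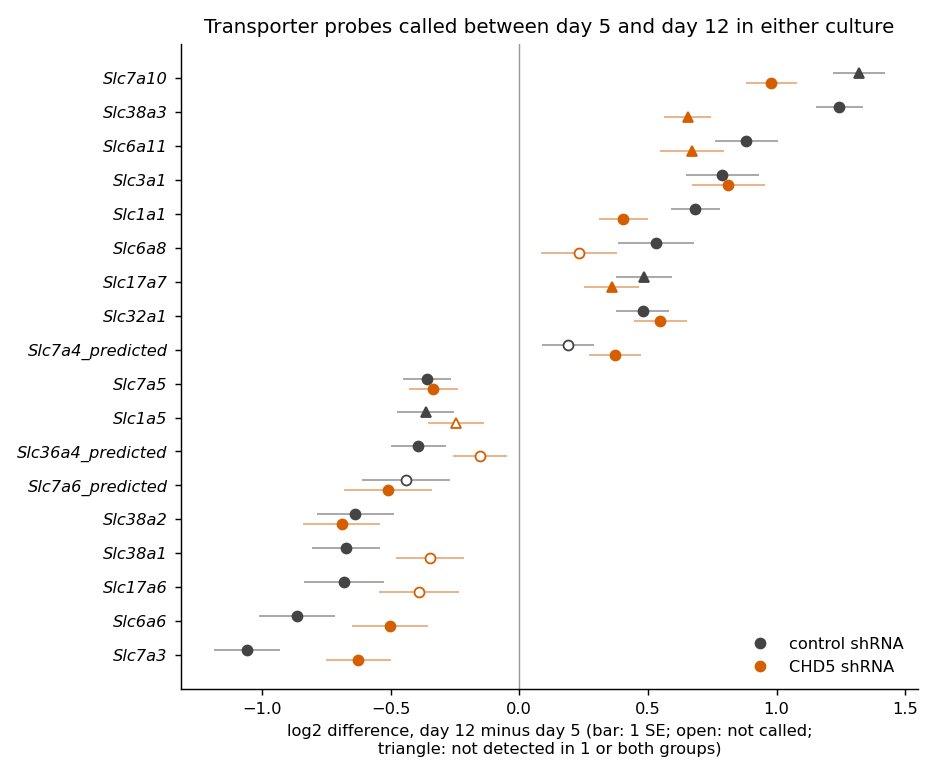
Log2 difference between day 12 and day 5 for the transporter probes called in either culture, with 1 SE (3 against 3 arrays). Filled points were called by limma and open points were not. Triangles mark comparisons in which 1 or both days had no array with the probe detected, where the plotted value is not a measured size. Slc7a3 stands at -1.06 in control and -0.62 with CHD5 shRNA.

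CHD5 shRNA was compared with control on each day. On day 5 none of the 34 probes was called by limma, 2 had an unadjusted p under 0.05 and the smallest adjusted p was 0.405, for Slc7a5. Of all kept probes 0.171% were called on that day. The groups of 3 arrays did not overlap for 6 transporter probes, 2 higher and 4 lower with CHD5 shRNA, beside 11% of all kept probes (5.15% higher and 5.8% lower).

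On day 9, 4 transporter probes were called, 3 higher and 1 lower, beside 5.89% of all kept probes (3.65% higher and 2.25% lower). The groups did not overlap for 8, 5 higher and 3 lower, beside 20.6% (12.4% higher and 8.16% lower). On day 12, 4 were called, 1 higher and 3 lower, beside 5.47% of all (2.23% higher and 3.24% lower). The groups of day 12 did not overlap for 16, 6 higher and 10 lower, beside 38.2% (19.9% higher and 18.3% lower). At the share of all kept probes about 2 of the 34 would be called on each of the later days. The median difference over the 34 probes was 0.02, -0.04 and -0.02 on the 3 days, and over all kept probes 0.01, -0.02 and 0.01. Exact permutation tests of 3 against 3 arrays cannot go below p = 0.1, which each probe without overlap reached. With median centring none of the 34 was called on day 9 and 1, Slc38a3, on day 12.

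**Figure D3:**
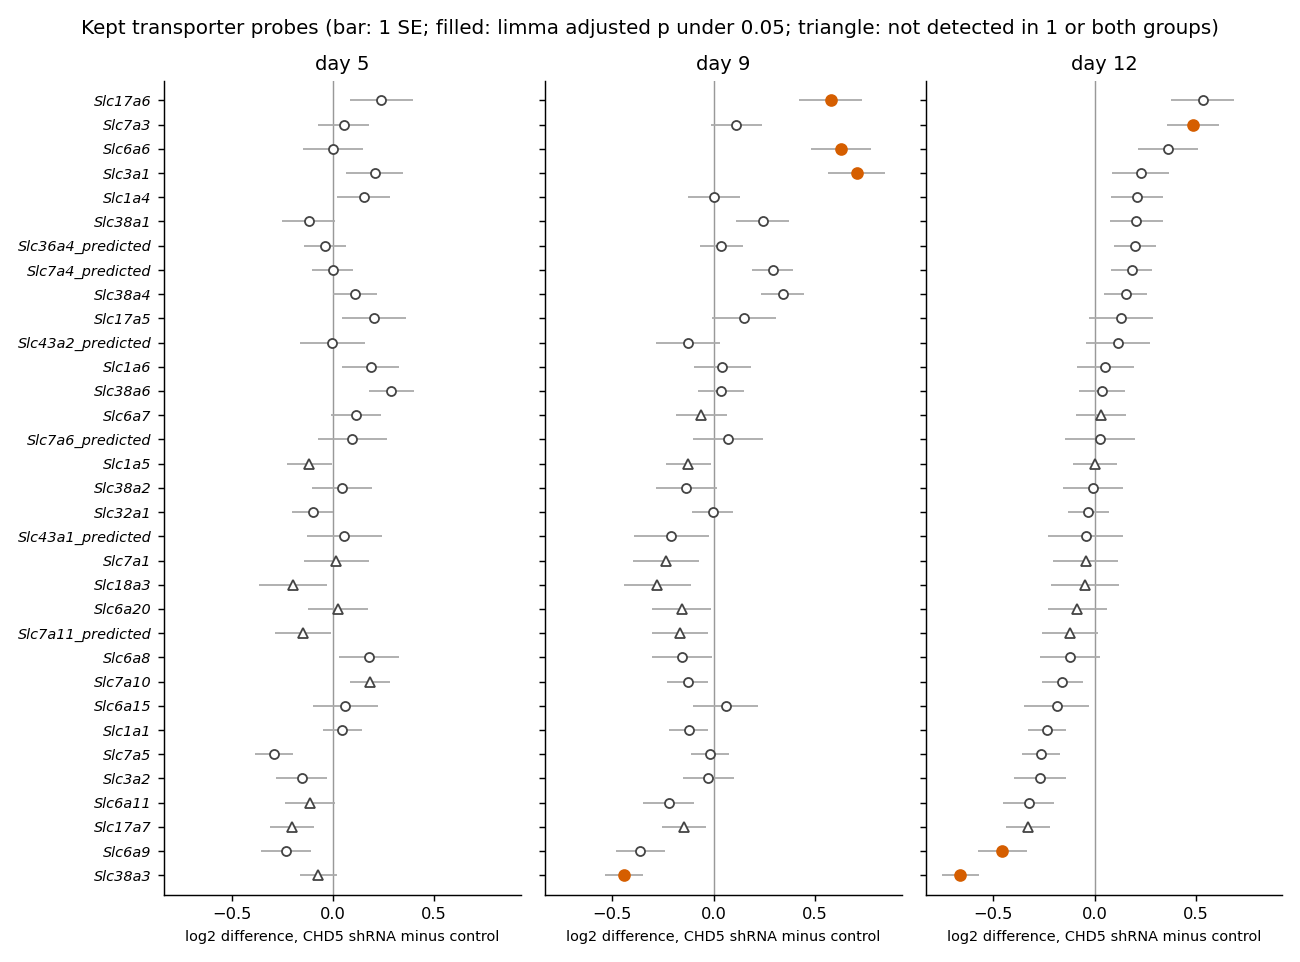
Log2 difference between CHD5 shRNA and control for kept transporter probes on days 5, 9 and 12, each point with 1 SE (3 against 3 arrays), in the order of day 12. Triangles mark comparisons in which 1 or both groups had no array with the probe detected, where the plotted value is not a measured size. Filled points were called by limma: none on day 5, then Slc3a1, Slc6a6, Slc17a6 and Slc38a3 on day 9, and Slc7a3, Slc6a9 and Slc38a3 on day 12, with Slc38a3 at -0.66 at the low end of day 12.

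Of the carriers of GABA, Slc6a11 and Slc32a1 were not called. Slc6a11 had -1.42, -1.18 and -1.32 with CHD5 shRNA on day 12, below the control values of -0.86, -0.96 and -1.13, and its difference of -0.33 ± 0.12 was not called (limma adjusted p = 0.169; with neqc -0.57 and 0.0483). Slc32a1, which fills inhibitory vesicles, differed by -0.10 ± 0.10, -0.01 ± 0.10 and -0.03 ± 0.10 on the 3 days.

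Slc6a9, a glycine carrier of glia and of some neurons, had -0.00, -0.03 and -0.19 with CHD5 shRNA on day 12 and 0.42, 0.45 and 0.28 in control, without overlap. Its difference was -0.23 ± 0.12 on day 5, -0.36 ± 0.12 on day 9 (limma adjusted p = 0.0904) and -0.46 ± 0.12 on day 12 (limma adjusted p = 0.0339). Leaving out any 1 of the 6 day 12 arrays ended the call, with limma adjusted p of 0.059 to 0.164. So did median centring and a fit without a detection filter. On day 9 the control array of replicate b, at 0.01, lay within the CHD5 shRNA range of -0.12 to 0.08, and the other 2 were at 0.54 and 0.42. Gldc_predicted, which breaks glycine down, was lower by 0.53 ± 0.09, 0.38 ± 0.09 and 0.70 ± 0.09 on the 3 days, each called by limma. Phgdh was lower on day 12 by 0.49 ± 0.14 (limma adjusted p = 0.0406). Of the 9 kept probes of that list 1, 1 and 2 were called on the 3 days, all lower, beside 0.171%, 5.89% and 5.47% of all kept probes.

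Slc38a3 was lower on both later days. With CHD5 shRNA its values were -1.40, -1.31 and -1.30 on day 9 and -1.30, -1.20 and -1.04 on day 12, all below the control arrays of the day. On day 5 it was detected on no CHD5 shRNA array and on 2 control arrays, so that no difference is given. The difference was -0.44 ± 0.09 on day 9 (limma adjusted p = 0.00932) and -0.66 ± 0.09 on day 12 (limma adjusted p = 0.000312). The day 9 call was lost without the CHD5 shRNA array of replicate a or c (limma adjusted p = 0.0557 and 0.0506), and with array weights. Median centring, no detection filter, a fit to the compared groups alone and a fixed block by replicate letter ended it too. With neqc the day 12 difference was -1.05. The other glutamine carriers were not called: Slc38a1 differed by -0.12, 0.24 and 0.21 and Slc38a2 by 0.05, -0.13 and -0.01 on the 3 days, with SE of 0.13 and 0.15.

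Of the vesicular glutamate carriers, Slc17a6 was higher on day 9. It had 2.38, 2.41 and 2.41 with CHD5 shRNA on day 9, above control values of 2.22, 1.28 and 1.96, and 2.18, 2.04 and 2.05 on day 12, above 1.52, 1.60 and 1.54. The difference was 0.24 ± 0.16 on day 5, 0.58 ± 0.16 on day 9 (limma adjusted p = 0.0354) and 0.53 ± 0.16 on day 12 (limma adjusted p = 0.0541). The low control value of day 9 is that of the dim array, and without it the day 9 difference was 0.31 (limma adjusted p = 0.0302). It was not called on day 9 without 1 of the CHD5 shRNA arrays of that day, whichever it was, or without the day 12 control array of replicate c, with limma adjusted p of 0.051 to 0.15. Median centring, no detection filter, the fit to the compared groups and the fixed block also ended the day 9 call. On day 12 Slc17a7 was detected on all 3 control arrays and on no CHD5 shRNA array, at least 1.20-fold lower with CHD5 shRNA. It was not called (limma adjusted p = 0.0968, and 0.0076 with neqc). It was kept through control arrays alone, so that this comparison is not independent of the detection filter. Slc1a1 differed by -0.23 ± 0.10 on day 12 (limma adjusted p = 0.207).

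Slc6a6 had 0.20, -0.08 and 0.28 with CHD5 shRNA on day 9, and -0.10, -0.77 and -0.61 in control. All CHD5 shRNA arrays were higher, the closest pair being -0.08 and -0.10. The difference was 0.00 ± 0.15 on day 5, 0.63 ± 0.15 on day 9 (limma adjusted p = 0.019) and 0.36 ± 0.15 on day 12 (limma adjusted p = 0.207). The day 9 call was lost without the control array of replicate c or the CHD5 shRNA array of replicate a or c (limma adjusted p of 0.0606, 0.0827 and 0.13), and with the second measurement of replicate a. Median centring, no detection filter, the fit to the compared groups and the fixed block ended that call too. The creatine carrier Slc6a8 of the same family differed by 0.18, -0.16 and -0.12, with SE of 0.15.

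Slc7a3 reached 1.70, 1.42 and 1.48 with CHD5 shRNA on day 12, all above the control values of 1.02, 1.04 and 1.08. The difference was 0.05 ± 0.13 on day 5, 0.11 ± 0.13 on day 9 and 0.49 ± 0.13 on day 12 (limma adjusted p = 0.0295). As for Slc6a9, the call did not hold without any 1 of the day 12 arrays, with limma adjusted p of 0.0534 to 0.172. Nor did it hold with median centring or without a detection filter. The other members of family 7 were not called: Slc7a5 differed by -0.29 ± 0.09, -0.02 ± 0.09 and -0.27 ± 0.09, and Slc7a10, detected on no control array of day 5, by -0.13 and -0.16 with SE of 0.10 on days 9 and 12. Slc7a11_predicted, the cystine exchanger, was detected on 1 array of 18.

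Slc3a1 was higher with CHD5 shRNA on day 9. Its values there were 2.18, 1.89 and 1.87, as against 1.16, 1.19 and 1.48 in control, and the groups did not overlap. The difference was 0.71 ± 0.14 (limma adjusted p = 0.00805), after 0.21 ± 0.14 on day 5 and before 0.23 ± 0.14 on day 12 (limma adjusted p = 0.514). It was not called without the day 9 CHD5 shRNA array of replicate a (limma adjusted p = 0.0557), with array weights, or with neqc, which gave 0.60 (limma adjusted p = 0.0599). Median centring, the fit to the compared groups and the fixed block ended the call too. Slc7a9, the light chain with which Slc3a1 is known to pair in kidney, was detected on no array. In RefSeq the gene overlaps its neighbour Prepl, whose own probe differed by 0.00 ± 0.09, 0.43 ± 0.09 and 0.17 ± 0.09 on the 3 days and was called on day 9 (limma adjusted p = 0.0131). The lowest day 9 control value of Prepl, 0.60, was that of the dim array, and the others were 0.90 and 0.93. In control, Prepl differed by -0.45 ± 0.09 from day 5 to day 9 and by -0.23 ± 0.09 from day 5 to day 12. Slc3a1 differed by 0.50 and 0.79 over the same days. Whether transcripts of the neighbour reach the Slc3a1 probe was not tested. The change of the Slc3a1 difference was not called from day 5 to day 9, 0.50 ± 0.20, or from day 9 to day 12, -0.48 ± 0.20 (limma adjusted p = 0.592 and 0.994). The other heavy chain, Slc3a2, differed by -0.15, -0.03 and -0.27 with SE of 0.13.

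**Figure D4:**
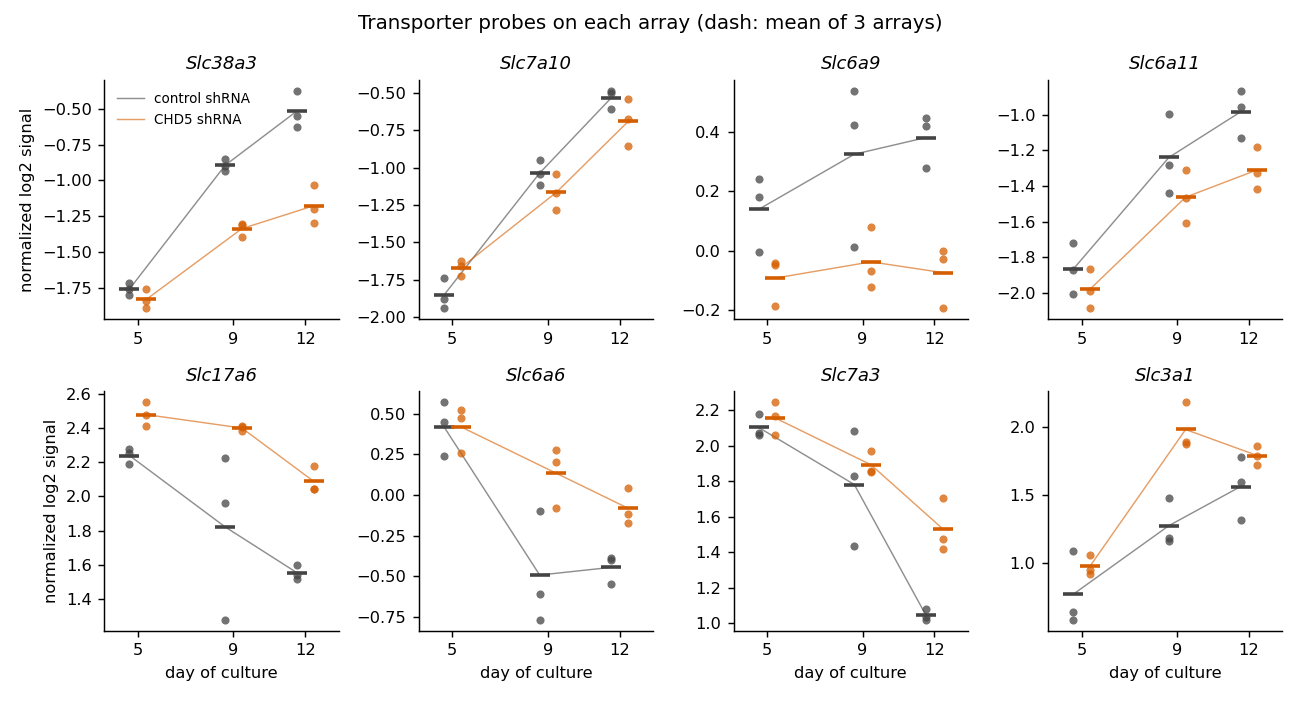
Normalized log2 signal of 8 transporter probes on each array by day of culture; points are arrays, dashes are means of 3 arrays and lines join the means. The 4 upper probes had higher means on day 12 than on day 5 in control (for Slc6a9 by 0.24, not called). On day 12 all 3 CHD5 shRNA arrays of Slc38a3, Slc6a9 and Slc6a11 lay below control, the last not called, and in the lower row Slc17a6, Slc6a6 and Slc7a3 fell with days in control.

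The comparisons over days and against control share the control arrays, so their values stand side by side here and are not set against each other in a test. Slc38a3 and Slc6a9 had control differences from day 5 to day 12 of 1.24 and 0.24, and differences from control on day 12 of -0.66 and -0.46. Slc7a3, Slc6a6 and Slc17a6 had -1.06, -0.87 and -0.68 over days, and 0.49, 0.36 and 0.53 against control. Slc3a1 had 0.79 and 0.23. For Slc32a1 the values were 0.48 and -0.03, and for Slc38a2 -0.64 and -0.01.

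Markers of other cells moved with CHD5 shRNA on the same days. Of 10 kept astrocyte markers 0, 7 and 7 were lower on days 5, 9 and 12, with median log2 differences of -0.24, -0.92 and -0.76. Of all kept probes 0.171%, 5.89% and 5.47% were called on these days, in either direction. The mean of the 10 probes lay between 2.30 and 2.40 on the day 12 control arrays and between 1.57 and 1.64 with CHD5 shRNA, and the summed signals between 47220 and 56600 and between 24870 and 28840. On day 9 the mean lay between 1.80 and 2.38 in control and between 0.96 and 1.31 with CHD5 shRNA. The day 9 control value of 2.38 is that of the dim array, and the others were 1.80 and 1.84. On day 5 the mean lay between 0.15 and 0.21 in control and between -0.15 and -0.06 with CHD5 shRNA. Without the dim array the median log2 differences of the list were -0.25, -0.77 and -0.77 on days 5, 9 and 12. Gfap, Aqp4, S100b and Gja1 were detected, and of the 11 probes 1 of the 2 for Sox9 never was. The part of this lower astrocyte signal in the lower values of Slc38a3, Slc6a9 and Slc6a11 was not tested.

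Slc1a2, the astrocyte glutamate carrier, is among the markers and was lower on day 12 by 0.54 ± 0.09 (limma adjusted p = 0.00112). The interneuron markers had 0, 1 and 2 of 10 kept probes lower, Npy on days 9 and 12 and Calb2 on day 12, with day 12 means between 1.15 and 1.16 in control and between 0.85 and 0.88 with CHD5 shRNA. Of 7 markers of all neurons 1 was called on days 9 and 12, Tubb3, which was higher by 0.55 ± 0.13 and 0.53 ± 0.13. The mean of the 7 lay between 2.76 and 2.85 on the day 12 control arrays and between 2.92 and 2.93 with CHD5 shRNA. None of 3 markers of excitatory cortical neurons was called on any day. Oligodendrocyte lineage markers had 2 of 9 lower on days 9 and 12, Cnp on both, and fibroblast markers 1, 3 and 2 of 5 lower. These list counts stand beside 0.171%, 5.89% and 5.47% of all kept probes called on days 5, 9 and 12. Of the microglial markers 6 of 8 probes and of the endothelial and pericyte markers 4 of 6 were never detected, and none of those kept was called. Pvalb, Mag, Col1a1 and Col3a1 were not detected either. The part of each of these lists in the transporter values was not tested either. Among enzymes of transmitter metabolism Abat, which degrades GABA, was lower by 0.46 ± 0.12 on day 9 and 0.49 ± 0.12 on day 12 (limma adjusted p = 0.0296 and 0.02), and was the only 1 of 8 kept probes called, and neither of 2 kept probes of monoamine and acetylcholine metabolism was called.

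**Figure D5:**
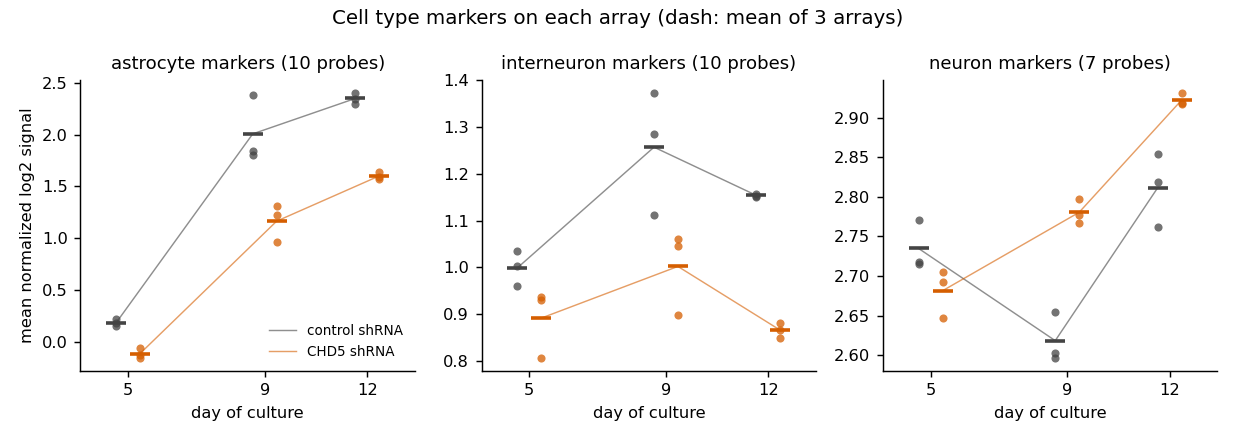
Mean normalized log2 signal of the kept markers of astrocytes, interneurons and all neurons on each array by day of culture; points are arrays, dashes are means of 3 arrays and lines join the means. The astrocyte means of day 12 lie between 2.30 and 2.40 in control and between 1.57 and 1.64 with CHD5 shRNA.

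Whether the effect of CHD5 shRNA changed between days was tested as the change of the difference. None of the 34 probes was called by limma from day 5 to day 9, from day 9 to day 12 or from day 5 to day 12, beside 0%, 0% and 0.153% of all kept probes, and 4, 2 and 4 had an unadjusted p under 0.05. The smallest adjusted p, 0.075, was that of Slc38a3 from day 5 to day 12. No size of that change is given, since the probe was detected on no day 5 array with CHD5 shRNA.

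The dim day 9 control array entered the pooled spread of every comparison. Without it 7 transporter probes were called on day 9, beside 10.8% of all kept probes, and 8 on day 12, beside 13.3%. The 4 genes called on each day with all arrays were among them. Among those added were Slc38a4, a system A carrier, at 0.37 and Slc6a9 at -0.53 on day 9, and on day 12 Slc17a6 at 0.55, Slc6a11 at -0.33, Slc7a5 at -0.27 and Slc17a7, lower and undetected with CHD5 shRNA. The change of the difference from day 5 to day 12 was then called for 2 probes, Slc38a3 among them (limma adjusted p = 0.0109), beside 2.41% of all kept probes. The astrocyte list then had 2, 7 and 8 of 10 probes lower on the 3 days and the interneuron list 0, 3 and 5 of 10.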

How the data were processed

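Primary rat cortical neurons with control or CHD5 shRNA were measured on 18 Illumina RatRef-12 arrays, 3 for each shRNA and day, a number that limits the precision. The authors read the arrays with GenomeStudio 1.1.1, and the deposited intensities are mean bead signals, neither normalized nor corrected for background. Beside each signal stands the deposited p-value for detection over negative control beads, as the authors' software gave it. A second measurement of the 6 replicate a arrays served only as an alternative. Groups and replicate letters came from the sample titles. Symbols are those of the file, some of them old. Of the 58 probes 57 matched RefSeq by gene ID.

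Kept were probes detected at 0.02 or below on any array. Each array's log2 signals were Z-transformed, following the methods of the study, then scaled by the average SD. limma 3.58.1 in R 4.3.3 (lmFit, eBayes) was run on all 6 groups with Benjamini-Hochberg adjustment over all kept probes within a contrast, and the code was tested on simulated data. A probe detected on no array of a group has only a bound there. The rule names probes called against control or for a change of the difference between days, the 5 largest called rises and falls of the control from day 5 to day 12, and a list of transmitter and main amino acid carriers, of which Slc6a17 had no probe under the rule. From other lists it names genes called against control. Values of 1 transporter and 1 marker, included in the counts, are neither reported nor plotted here. Further genes were chosen after their values were seen. Members and lists were chosen with earlier results of these data known. Alternatives were quantile normalization, median centring, neqc (offset 16), other detection filters, 1 probe per symbol, fits to the groups compared, replicate blocks, array weights, the second measurement and omission of each array in turn. Promoters are those of the RefSeq GRCr8 table. The build of the array's own coordinates is not given in the sources used here, and those coordinates were not used.

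Arrays that share a letter deviated from their group means with correlations of 0.268, 0.168 and 0.377 on day 5, 0.426, 0.148 and -0.198 on day 9, and 0.0472, 0.153 and 0.014 on day 12. The labels do not say whether a letter pairs arrays, and these values do not settle it. A block by letter left the day 5 count at 0.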

Additional observations from a re-analysis of the deposited data

How the results depend on the processing

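Against control on day 9 the count of 4 called transporter probes became 0 with median centring, 0 in the fit to the compared groups, 0 with the fixed replicate block by letter and 1 without a detection filter, and 0 to 7 without 1 array (0 and 1 without CHD5 shRNA replicate a and c of that day, 7 without the dim array). On day 12 the count of 4 became 7 with quantile normalization, 7 with neqc, 1 with median centring, 2 without a detection filter, 11 in the fit to the compared groups, 11 with the fixed replicate block and 14 with array weights, and 2 to 8 without 1 array (2 without any 1 of the day 12 arrays, 8 without the dim one). The random replicate block of letter within day gave 0, 5 and 5 on the 3 days, with a consensus correlation of 0.127. The estimation of array weights stopped short of its tolerance. In control, day 5 to day 9 (11) gave 3 in the fit to the compared groups, 5 with array weights and 9 to 20 without 1 array (20 without control replicate a of day 9). Day 9 to day 12 (6) gave 0 with median centring and 0 in the fit to the compared groups, and 3 to 9 without 1 array (3 without control replicate a of day 12). Day 5 to day 12 (17) gave 11 with median centring. With CHD5 shRNA, day 5 to day 9 (6) gave 11 with array weights and 5 to 10 without 1 array (10 without the dim array). Day 9 to day 12 (1) gave 3 with quantile normalization, 0 with median centring, 0 without a filter, 2 when all 3 arrays of a group had to be detected, 7 in the fit to the compared groups, 12 with array weights and 0 to 5 without 1 array (5 without the dim array, 0 without CHD5 shRNA replicate b or c of day 9 or a or c of day 12, 2 without control replicate a or c of day 5 or a of day 9). Day 5 to day 12 (14) gave 9 with median centring and 9 to 19 without 1 array (9 without CHD5 shRNA replicate a of day 5 or b of day 12). The change of the difference from day 5 to day 12 (0) gave 1 with quantile normalization, 1 with neqc, 1 in the fit to the compared groups, 1 with the random replicate block and 1 with array weights, and 0 to 2 without 1 array (2 without the dim array). No alternative called a transporter against control on day 5, or for the changes from day 5 to day 9 and from day 9 to day 12. Slc1a1 changed sign in control from day 5 to day 9 with median centring, -0.13 against 0.40. Slc38a3 kept its day 12 call in all 29 alternatives. The cause of these shifts was not tested. The counts of this section stand without the share of all kept probes called in the same setting. They describe the stability of the calls and do not set the transporters against other probes. Without the dim array that share against control was 10.8% on day 9 and 13.3% on day 12. With all arrays it was 5.89% and 5.47%. Slc17a6 on day 12 passed the limit in 10 of the 29. Signals near background limit Slc38a3, Slc6a11, Slc7a10 and Slc17a7, whose differences were larger with neqc.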
